A study of Mus musculus with 17 samples.

Results

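Cytosolic ribosomal protein genes encode the protein subunits of the ribosome that translates nuclear messages. The rule took every gene whose symbol is Rpl or Rps followed by a number, with an optional closing letter a, b, l, x or y, together with Rplp0, Rplp1, Rplp2 and Rpsa, and it left out kinases, pseudogenes and unnamed gene models. It found 82 genes among 24224 named genes, 50 of the large subunit and 32 of the small subunit. Their RNA counts were followed in 17 libraries of mouse common myeloid progenitors, the sorted blood precursors that give rise to the myeloid and erythroid lineages.

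The libraries fell into 7 groups. Fetal liver gave 3 wild-type libraries, 3 labelled as Lin28b knockout and 1 with inducible let-7. Adult bone marrow gave 3 wild-type libraries, 3 with a knockout of let-7b/c, 2 with inducible LIN28B, and 2 in which inducible LIN28B was under vavcre, which the design text describes as induction restricted to blood-forming cells. The strain was C57BL/6J except for the let-7b/c knockout, labelled albino black 6, so that strain and genotype cannot be told apart there. The same treatment text, induction of Lin28b overexpression by doxycycline, stands on all 17 libraries, and no label gives an age. Nothing states that each library is a different animal, and the p-values cover only how these libraries vary.

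A ribosome holds 1 copy of nearly every subunit protein, and cells keep the messages of these genes at matched, high levels. The messages begin with a run of pyrimidines at the 5′ end, a feature shared with those of several elongation factors, and this run places their translation and stability under the control of nutrient signalling. LIN28B is a fetal RNA-binding protein that stops let-7 microRNA precursors from maturing and also binds many messages directly, ribosomal protein messages among them. Inherited loss of 1 copy of certain ribosomal protein genes causes a failure of red cell production, which ties this family to the progenitors studied here.

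Summed gene counts were 14957111 to 28165554 per library. Lin28b, the targeted gene, stood at 89.3 to 124 CPM (counts per 1000000) in wild-type fetal liver and at 88.9 to 112 CPM in the libraries labelled Lin28b knockout. Its RNA level thus does not bear out that label, and its protein was not measured. Lin28b was at 0.0585 to 0.744 CPM in wild-type bone marrow, 2.06 to 3.28 CPM with inducible LIN28B and 1.73 to 3.92 CPM with inducible LIN28B under vavcre. A count of mouse Lin28b does not measure a transgene from another species. Of 8 progenitor markers, Mpo was abundant in every group, at 3166 CPM or more, while Kit, which has several transcripts, had 0 counts throughout. Spi1, Gata2 and Csf1r ran from 34.4 to 780 CPM over all libraries and Fcgr3 from 3.67 to 114 CPM. Cd34 was low, at 0.684 to 14.3 CPM, and Csf3r lay at 0 to 0.324 CPM. The libraries labelled Lin28b knockout also held 27885 to 33173 CPM of 10 erythroid markers against 353 to 574 CPM in wild-type fetal liver, with 289 to 1102 CPM of 7 hepatocyte markers against 2.35 to 5.11 CPM and 276 to 319 CPM of 6 macrophage markers against 5.85 to 9.86 CPM. Granulocyte markers summed to 2534 to 5414 CPM against 401 to 492 CPM. Of 6 tested progenitor markers, 1 was called higher and 3 lower. The lower ones were Gata2 (log2 difference -2.41, adjusted p = 9.95e-09), Cd34 (-2.45, adjusted p = 2.39e-05) and Spi1 (-1.19, adjusted p = 7.61e-07). Fcgr3 was at 45.3 to 81.2 CPM against 12.1 to 21.0 CPM. Alb, Hbb-y and the other erythroid, hepatocyte, macrophage and granulocyte markers were above 0 there except Serpina1a, Ahsg and S100a9. Their part in the results below was not tested.

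The way reads were counted decided which members could be followed. Reads that fit more than 1 transcript were set aside, and of the 82 members the 67 with at least 1000 counts over all libraries had a single RefSeq transcript each. The least counted of these was Rps4l with 14098 counts. The other 15 had at most 685 counts, reached by Rps24, and 11 of them had several transcripts. Rpl10l and Rpl26 had no counts, and Rpl19, Rpl38, Rpl35a, Rpl3l and Rps27a had too few to enter the test, so 75 members were tested. For most of the 15 the low values are those of reads left after counting and do not measure the gene's RNA. Levels are given as CPM on library sizes scaled by the trimmed mean of M-values (TMM), and they are not corrected for length, so they compare libraries and not genes. In bulk samples, fewer cells of a type and less RNA per cell cannot be told apart.

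Ribosomal protein genes took 7.85%, 7.94% and 8.41% of gene counts in wild-type fetal liver and 8.23%, 6.93% and 8.82% in wild-type bone marrow. They took 6.47%, 7.07% and 6.66% in the libraries labelled Lin28b knockout and 7.72% in the inducible let-7 library. In bone marrow they took 9.23%, 8.48% and 7.32% with the let-7b/c knockout, 7.03% and 7.70% with inducible LIN28B, and 5.21% and 4.81% with inducible LIN28B under vavcre. The vavcre libraries were the lowest of all 17, and their mean share was 0.680 times that of the LIN28B libraries without vavcre. The labelled knockout libraries lay below wild-type fetal liver without overlap, while the wild-type fetal liver values fell inside the range of wild-type bone marrow. Large-subunit genes had 1.38 to 1.42 times the counts of small-subunit genes in the other 15 libraries and 1.47 and 1.44 times in the vavcre libraries. These shares are descriptions with no test.

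**Figure D1:**
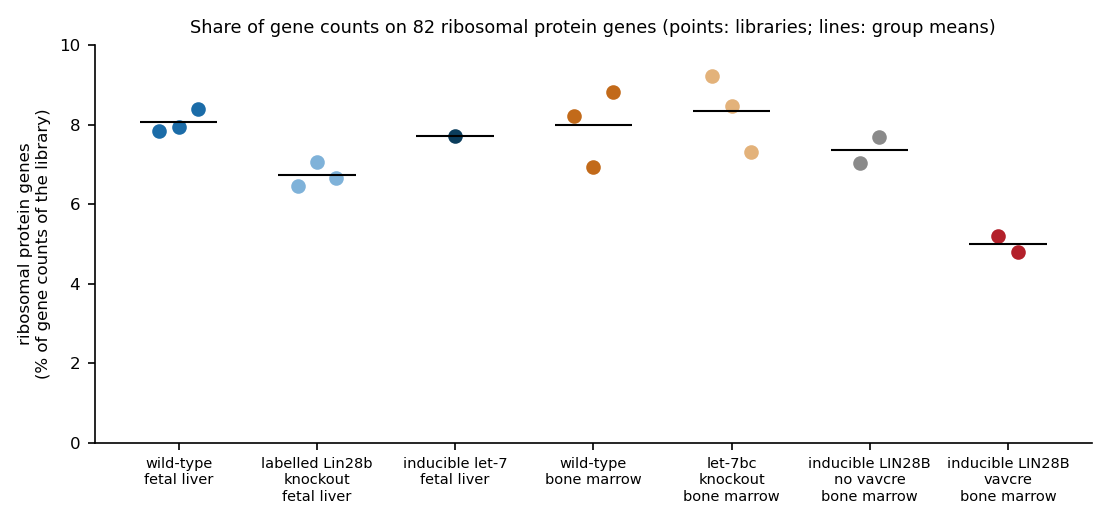
Share of each library's gene counts (percent, vertical axis) that fell on the 82 ribosomal protein genes, by group (horizontal axis). Points are libraries and lines are group means; the vavcre libraries sit at 5.21% and 4.81%, below all others.

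The LIN28B groups with and without vavcre were compared with each other. Induction of the transgene was not measured in either group. Messages of ribosomal proteins fell across both subunits in the vavcre libraries. Of 75 members tested, 54 were lower and 1 was higher with vavcre, at a Benjamini-Hochberg adjusted p under 0.05 in edgeR's quasi-likelihood test over all genes. Of all 13558 genes tested, 11.3% were called lower and 9.37% higher. The fallen genes were 32 of 44 large-subunit and 22 of 31 small-subunit members. The median log2 difference over members was -0.68, equal to 2 decimals for the large and small subunit, beside -0.01 over all genes.

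Rpsa, a small-subunit protein that also serves as a laminin receptor at the cell surface, fell furthest. Its level was 919 and 889.5 CPM in the vavcre libraries and 2589 and 3567 CPM in the LIN28B libraries without vavcre. It ran from 2585 to 4481 CPM in the other bone marrow libraries, 2455 CPM in the inducible let-7 library and 3553 to 4292 CPM in the remaining fetal liver libraries. The vavcre libraries lay far below every other library, and the log2 difference from LIN28B without vavcre was -1.77 (SE 0.24, adjusted p = 0.000194, n = 2 and 2), a 3.40-fold fall.

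Rps10, which sits at the entry of the message channel of the small subunit, was at 157 and 144 CPM with vavcre and at 359 and 493 CPM without. Its log2 difference was -1.50 (SE 0.24, adjusted p = 0.000574). Rpl36, a large-subunit protein, was at 202 and 184 CPM with vavcre and at 509.7 and 576 CPM without, a log2 difference of -1.49 (SE 0.14, adjusted p = 3.58e-05). The vavcre libraries did not overlap any other group for either gene. Rpl28 followed with a log2 difference of -1.30 (SE 0.19, adjusted p = 0.000274) and Rps12 with -1.27 (SE 0.24, adjusted p = 0.00183).

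The stalk of the large subunit, which recruits elongation factors, is built from Rplp0 and copies of Rplp1 and Rplp2, and all 3 genes fell. Rplp1 was at 254 and 234 CPM with vavcre and at 513 and 653 CPM without, a log2 difference of -1.26 (SE 0.21). Rplp2 stood at 234 and 254 CPM against 465 and 566 CPM, a log2 difference of -1.08 (SE 0.17). Rplp0, the protein that anchors the stalk to the ribosome, was at 2011 and 1795 CPM against 2934 and 3529 CPM, with a log2 difference of -0.76 (SE 0.15). Whether the stalk genes differ in the size of the fall was not tested.

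A few members did not fall. Rpl35, a large-subunit protein near the exit of the peptide tunnel, was at 1070.0 and 954 CPM with vavcre and at 790.3 and 802 CPM without, and it was the only member called higher, with a log2 difference of 0.35 (SE 0.10, adjusted p = 0.0254). That call was lost with only the groups compared in the fit (adjusted p = 0.0876) and without LIN28B library 1 (0.1179), LIN28B library 5 (0.1071) or vavcre library 4 (0.1422). Against wild-type bone marrow, at 927, 889.7 and 986 CPM, the vavcre libraries gave a log2 difference of 0.12 (SE 0.09, adjusted p = 0.374). Rps19, a protein needed to mature the small subunit, was at 2254 and 1977 CPM with vavcre and at 2182 and 2040.3 CPM without, a log2 difference of 0.00 (SE 0.08). Rpl4, at 2914 and 2716 CPM against 2675 and 3019 CPM, had a log2 difference of -0.02 (SE 0.10). Rps27l, a stress-responsive copy of Rps27, was at 147 and 141 CPM against 136 and 129.8 CPM (log2 difference 0.12, SE 0.12).

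**Figure D2:**
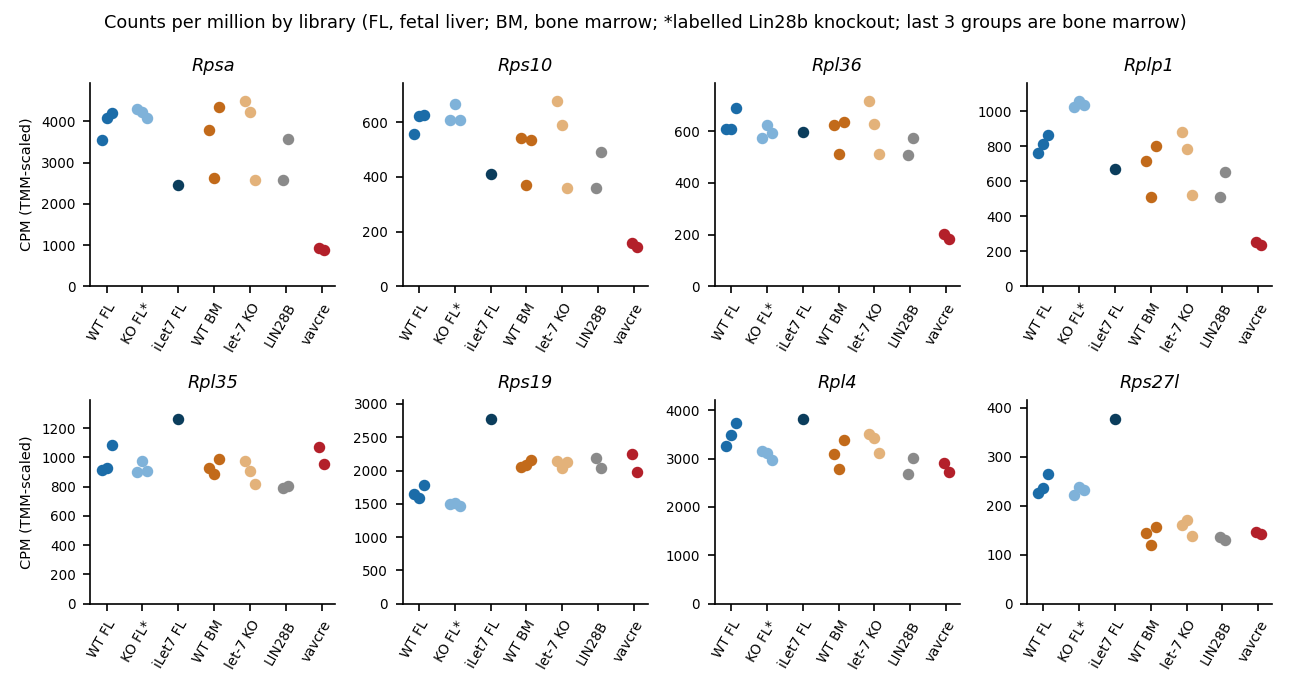
CPM on TMM-scaled library sizes (vertical axes, from 0) of 8 ribosomal protein genes in each library, by group (horizontal axes; points are libraries). In the upper row (Rpsa, Rps10, Rpl36, Rplp1) the vavcre libraries lie below every other library; in the lower row (Rpl35, Rps19, Rpl4, Rps27l) they lie within the range of the others.

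Some genes of the family are known from inherited or acquired anaemia. Of these Rps10 (above), Rps26, Rps7 and Rpl11 fell with vavcre. Rps26 was at 362 and 342 CPM against 527 and 568 CPM (log2 difference -0.64, SE 0.16). Rpl11, which with Rpl5 binds the p53 regulator Mdm2 when ribosome assembly stalls, was at 483 and 403 CPM against 562 and 643 CPM (log2 difference -0.44, SE 0.14). Rpl5 itself was at 891 and 849.8 CPM against 899 and 1005 CPM and was not called (log2 difference -0.13, SE 0.14, adjusted p = 0.554). Rps14, whose loss marks a myelodysplastic syndrome, was at 1416 and 1239.7 CPM against 1284 and 1451 CPM (log2 difference -0.04, SE 0.12, adjusted p = 0.861).

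**Figure D3:**
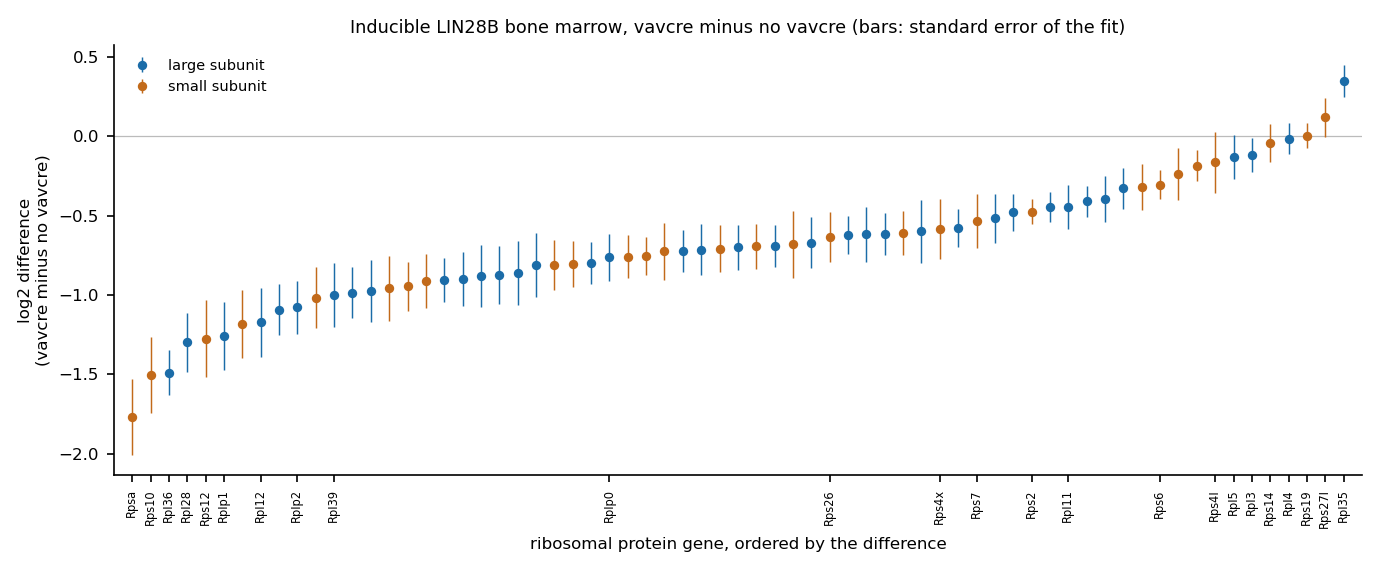
Log2 difference between inducible LIN28B with and without vavcre (vertical axis) for the 67 members with at least 1000 counts, ordered by that difference (horizontal axis, with genes described in the text labelled). Points are fitted differences and bars their standard errors; both subunits are spread over the whole range, from -1.77 in Rpsa to 0.35 in Rpl35.

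The fall was uneven, so the proportions among the messages changed. Each member's log2 level was set against the median of the 67 well-counted members in the same library. Between the LIN28B groups these relative levels differed with an SD of 0.395 over members, and 15 of 67 moved by more than 0.5. The SD was 0.0986 between inducible LIN28B without vavcre and wild-type bone marrow and 0.0861 between the let-7b/c knockout and wild-type bone marrow, and no member moved by more than 0.5 in either. It was 0.343 between wild-type fetal liver and bone marrow, where 3 members moved by more than 0.5. Rps4l alone moved by 2.35 there, so that SD rests largely on 1 gene and does not describe a broad shift. The SD was 0.193 between the labelled Lin28b knockout and wild-type fetal liver, where 1 member moved by more than 0.5. Relative to the member median with vavcre, Rpl35 moved by 1.01, Rps27l by 0.78, Rps19 by 0.67 and Rpl4 by 0.65, and Rpsa by -1.08. These relative levels are descriptions with no test.

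For 58 of the 67 members (86.6%) both vavcre libraries lay below all other 15 libraries. The same was true of 657 of 13558 genes tested (4.85%). The 9 exceptions were Rpl3, Rpl35, Rpl4, Rpl5, Rps14, Rps19, Rps27l, Rps4l and Rps6. Most members have short transcripts. The 46 members under 1000 nt had a median log2 difference of -0.70, and 1174 other genes under that length had 0.02. Spearman's rho over members was 0.09 with transcript length and -0.16 with the number of near-identical copies in other genes, which could share reads. Both are across genes, which are not independent replicates.

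The starts of 5 fallen genes and of Rpl35 are shown because the pyrimidine run of these messages lies there. RefSeq start sequences for GRCm38.p6 were found for 61 of the 82 members, and those shown are the largest falls among them whose start lies at the end of the counted transcript. Each line gives the last 10 bases before the annotated start and the first 20 from it, on the strand of the gene, with the longest run of C and T in capitals.
Rpsa, chr9:120127756-120127785, plus strand: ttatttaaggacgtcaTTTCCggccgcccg
Rps10, chr17:27635225-27635254, minus strand: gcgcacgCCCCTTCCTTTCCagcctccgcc
Rpl28, chr7:4792955-4792984, plus strand: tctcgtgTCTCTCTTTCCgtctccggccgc
Rpl12, chr2:32961702-32961731, plus strand: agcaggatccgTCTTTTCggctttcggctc
Rplp2, chr7:141447641-141447670, plus strand: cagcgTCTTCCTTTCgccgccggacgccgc
Rpl35, chr2:39005112-39005141, minus strand: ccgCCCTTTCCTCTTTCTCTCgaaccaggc
The run was 5 bases long in Rpsa, which fell furthest. It was 13 in Rps10, 11 in Rpl28, 10 in Rplp2 and 7 in Rpl12, which also fell. In Rpl35, which was called higher, it was 18. Whether the length of the run goes with the difference was not tested. A run of at least 8 C or T within 50 bases either side of the start was present in 79.5% of 73 member starts and in 35.7% of 32851 starts of all genes. The letters CTTTC, read on the gene's strand in that window, were in 49.3% of member starts against 12.8% of all. The letters CCGGAAG, part of a motif bound by ETS-family factors, were on either strand of the 300-base start region in 35.6% of member starts against 8.86% of all. A match describes letters and not binding.

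Each LIN28B group was also compared with wild-type bone marrow. Without vavcre, no member of 75 was called by edgeR, the tool run here, with 4 at an unadjusted p under 0.05, and 0.509% of all genes were called higher and 0.295% lower. The median log2 difference over members was -0.14 beside -0.02 over all genes, and 67 of 75 members were below 0. With vavcre, 59 were lower and 1 was higher, against 14.3% and 12.5% of all genes, and the median was -0.85. Rpsa showed the contrast most: its log2 difference from wild-type bone marrow, at 3778, 2636 and 4347 CPM, was -0.22 (SE 0.21) without vavcre and -1.99 (SE 0.23) with it. The groups share the wild-type libraries, and the tested difference between them is the one above. The gene called higher, Rpl31, rested on 1 count in each wild-type library and 12 and 13 counts in the vavcre libraries, too few for a level.

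Averaged over the LIN28B groups, 56 of 75 members were lower than in wild-type bone marrow and 1 was higher, against 7.86% and 6.59% of all genes, with a median of -0.50. The count fell to 30 without wild-type library 6, 34 without wild-type library 2 and 33 without LIN28B library 1. The member called higher was again Rpl31, and in 11 alternatives no member was called higher, so it is no finding. Against the let-7b/c knockout, 62 members were lower and none higher in edgeR (0 higher in DESeq2 and limma-voom too), against 10.5% and 8% of all genes, with a median of -0.58 and 64 members at an unadjusted p under 0.05. The knockout removes let-7b and let-7c, while LIN28B blocks the maturation of let-7. Levels of let-7 were not measured in either, and this comparison also carries the strain of the knockout. The mean takes in the vavcre libraries, and LIN28B without vavcre was not tested against the knockout on its own. Rps2 was at 3557, 3833 and 3747 CPM with the let-7b/c knockout, 3015 and 3125 CPM with inducible LIN28B, and 2187 and 2226 CPM with vavcre. It was also called higher with the knockout than in the wild type. Rpsa, by contrast, overlapped between the knockout (4481, 4215 and 2585 CPM) and LIN28B without vavcre (2589 and 3567 CPM), and only the vavcre libraries (919 and 889.5 CPM) lay apart.

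With the let-7b/c knockout, few ribosomal protein messages were called against wild-type bone marrow. Of 75 members, 1 was higher and none lower in edgeR, with 0 lower in DESeq2 and limma-voom too, against 1.33% and 0.922% of all genes, with 6 members at an unadjusted p under 0.05 and a median log2 difference of 0.10. That median moved with single libraries, to 0.24 without knockout library 3 (73 of 75 members above 0), 0.23 without wild-type library 6, 0.01 without knockout library 1 and -0.01 without wild-type library 5 (41 of 75 below 0). The gene called was Rps2, a protein at the entry of the message channel, at 3085, 2715 and 3182 CPM in wild-type bone marrow, which did not overlap the knockout values (log2 difference 0.31, SE 0.06, adjusted p = 0.0203). The call was lost with only the groups compared in the fit (adjusted p = 0.130) and without wild-type library 2 (0.0557), wild-type library 5 (0.0508) or knockout library 2 (0.0749).

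**Figure D4:**
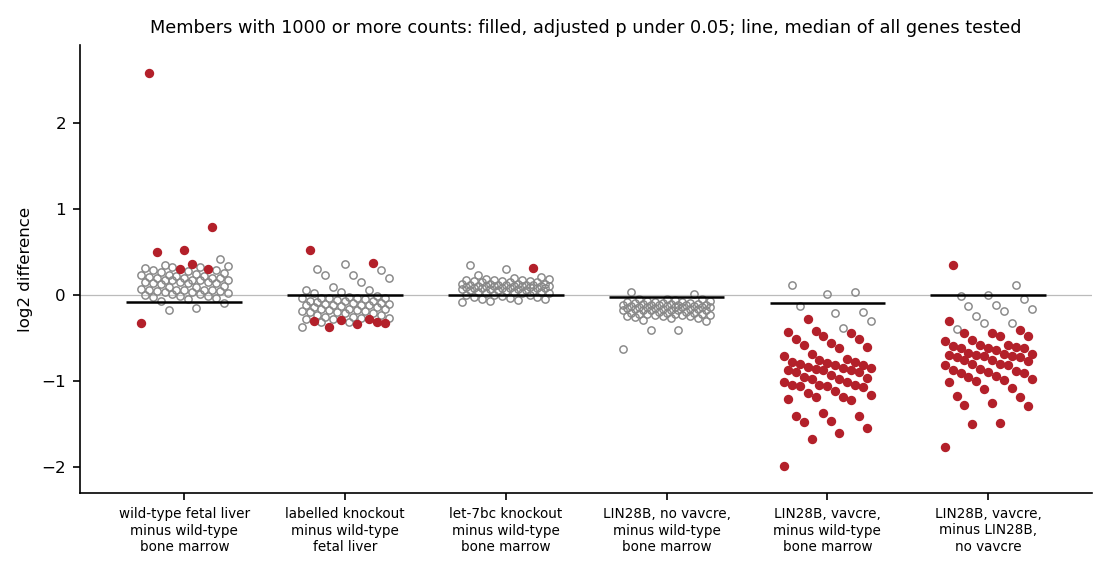
Fitted log2 differences (vertical axis) of the 67 members with at least 1000 counts in 6 comparisons (horizontal axis); the 8 tested members with fewer counts are not drawn. Filled points passed an adjusted p of 0.05, and horizontal lines are the medians over all genes tested; in the vavcre comparisons most points lie below the line, and in the others few pass.

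Other genes of translation were read from fixed lists. In the vavcre libraries against LIN28B without vavcre, 15 of 36 tested translation factors were lower and 6 higher. Of all genes tested there, 11.3% were called lower and 9.37% higher. The leading falls were Eef1a1 and Eef2, the main elongation factors, and Eif4b, an initiation factor, all known to carry the 5′ pyrimidine run. Eef1a1 fell from 13634 ± 2593 CPM (SD, n = 2) to 4475 ± 216 CPM, a log2 difference of -1.61 (SE 0.17, adjusted p = 3.63e-05), and Eef2 had -1.33 (adjusted p = 9.04e-05) and Eif4b -1.31 (adjusted p = 8.50e-05). Of 6 tested genes related to the family but outside the rule, Rps3a1 and Rack1, both small-subunit proteins, were lower, with log2 differences of -0.93 (adjusted p = 0.000500) and -0.76 (adjusted p = 0.0136), and Rpl7l1, a biogenesis factor, was higher (0.36, adjusted p = 0.0179).

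Genes of ribosome assembly were called in both directions, and those of the mitochondrial ribosome were called mostly higher. Of 44 tested biogenesis genes, 10 were higher and 7 lower with vavcre, with a median log2 difference of 0.04, where 9.37% of all genes were called higher and 11.3% lower. Eif6, which keeps the subunits apart, rose (0.75, adjusted p = 9.43e-05), as did Nop56, a core protein of small nucleolar particles (0.71, adjusted p = 0.000178), while Polr1d, a subunit of RNA polymerases I and III, fell (-1.06, adjusted p = 0.000173). Of 74 tested mitochondrial ribosomal proteins, 28 were higher and 1 lower, with a median of 0.26, led by Mrpl42 at 1.17 and Mrps30 at 1.16. Of 11 tested p53 targets, 2 were higher (Bax and Phlda3) and 1 lower (Btg2). Between the same groups the summed progenitor markers ran from 9476 to 11438 CPM with vavcre and from 6144 to 6710 CPM without. Mpo made up most of these sums, with a mean of 9695 CPM with vavcre and 5441 CPM without. Within that list Mpo (0.83, adjusted p = 0.0136) and Csf1r (1.11, adjusted p = 0.00181) were higher with vavcre and Gata2 (-0.70, adjusted p = 0.0143) was lower. Erythroid markers summed to 698 to 736 CPM with vavcre and 508 to 584 CPM without, with Fech called higher (0.85, adjusted p = 0.00198) and Epor (-1.26, adjusted p = 0.0182) and Hba-x (adjusted p = 0.0124) called lower. Granulocyte markers summed to 979 to 3433 CPM with vavcre and 978 to 1372 CPM without, and macrophage markers to 1.86 to 17 CPM and 5.37 to 6.13 CPM. Alas2 and S100a9 had 0 counts in both groups and Cd5l in the libraries without vavcre. The part of these markers in the fall was not tested.

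Single libraries of other groups also differed from their group in the levels of these members. Each library of a group of 3 was set against the other libraries of its group, and the inducible let-7 library against wild-type fetal liver, over the 67 members. In wild-type bone marrow, library 5 had a median log2 difference of -0.38, with 66 of 67 members below 0 and Rpsa at -0.62, Rpl35 at -0.10 and Rps19 at -0.02. In the let-7b/c knockout, library 3 had a median of -0.42, with 65 of 67 below 0, Rpsa at -0.75, Rpl35 at -0.20 and Rps19 at 0.02. Rpl35, called higher with vavcre, was thus below the group in both. Over all other genes tested the medians of these libraries were -0.01 and 0.00. Pearson's r over members with the difference between LIN28B with and without vavcre was 0.615 for wild-type library 5, 0.752 for knockout library 3 and 0.811 for the inducible let-7 library. Over 13483 other genes the same r was 0.03, 0.00 and 0.16. In wild-type fetal liver and the labelled knockout r over members ran from -0.37 to 0.18. These r are descriptions over genes measured in the same libraries, and libraries of 1 group take opposite signs by construction.

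The comparison of fetal liver with bone marrow asks how the family differs between stages and sites, which cannot be told apart here. In the wild type, 8 of 75 members were higher in fetal liver and 3 lower, against 13.9% and 13.2% of all genes. The members' count is near or under that of all genes and so is no result about the family. The median log2 difference was 0.17 beside -0.08 over all genes, and it was 0.06 without wild-type bone marrow library 5, 0.27 without library 6 and 0.06 with library totals. In the same comparison 37 of 44 biogenesis genes were higher and none lower, led by Npm1, a nucleolar chaperone (1.41, adjusted p = 3.85e-07), and Pno1 (0.94, adjusted p = 8.75e-06) and Bop1 (0.73, adjusted p = 1.54e-05), factors of small- and large-subunit maturation. Of 36 translation factors 19 were higher, and of 74 mitochondrial ribosomal proteins 61 were higher, with none lower in either list. Granulocyte markers also moved with the tissues, at 401 to 492 CPM in fetal liver and 1440.0 to 2200.4 CPM in bone marrow. Macrophage markers were at 5.85 to 9.86 CPM and 20.9 to 38.7 CPM, and the progenitor genes Gata2 (-1.09, adjusted p = 8.05e-05) and Mpo (-0.91, adjusted p = 0.00132) were lower in fetal liver while Csf1r was higher (0.47, adjusted p = 0.047). Their part was not tested.

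Rps4l, a copy of Rps4x that RefSeq lists as a non-coding RNA at chr6:148354656-148355596 in GRCm38.p6, set the tissues apart most among the well-counted members. It was at 88.1, 80.2 and 76.0 CPM in wild-type fetal liver, 66.0, 77.3 and 60.3 CPM in the libraries labelled Lin28b knockout and 124 CPM in the inducible let-7 library. In bone marrow it was at 13.9, 14.1 and 12.8 CPM in the wild type, 15.1, 21.2 and 15.5 CPM with the let-7b/c knockout, 7.71 and 9.83 CPM with inducible LIN28B, and 7.68 and 7.97 CPM with vavcre. Every fetal liver library lay above every bone marrow library. The wild-type log2 difference was 2.59 (SE 0.15, adjusted p = 2.24e-08), a 6.00-fold higher level, and averaged over the LIN28B groups Rps4l fell by 0.71 on the log2 scale from wild-type bone marrow (SE 0.14, adjusted p = 0.00444), where the median member was at -0.50.

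Its parent Rps4x, on the X chromosome, showed no such difference, at 1173, 1295 and 1347 CPM in wild-type fetal liver and 1313, 927 and 1433 CPM in wild-type bone marrow (log2 difference 0.05, SE 0.15, adjusted p = 0.843). Per 1000 counts of Rps4x, Rps4l had 64.5 ± 9.57 (SD, n = 3) in wild-type fetal liver, 69.1 ± 7.75 (n = 3) with the knockout label and 102 in the inducible let-7 library, but 11.6 ± 3.24 (n = 3) in wild-type bone marrow. The other bone marrow groups had 13.7 ± 3.40 (n = 3) with the let-7b/c knockout, 8.62 ± 0.187 (n = 2) with inducible LIN28B and 11.6 ± 0.973 (n = 2) with vavcre. No other gene's transcript matched Rps4l at 95% identity over 100 nt.

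**Figure D5:**
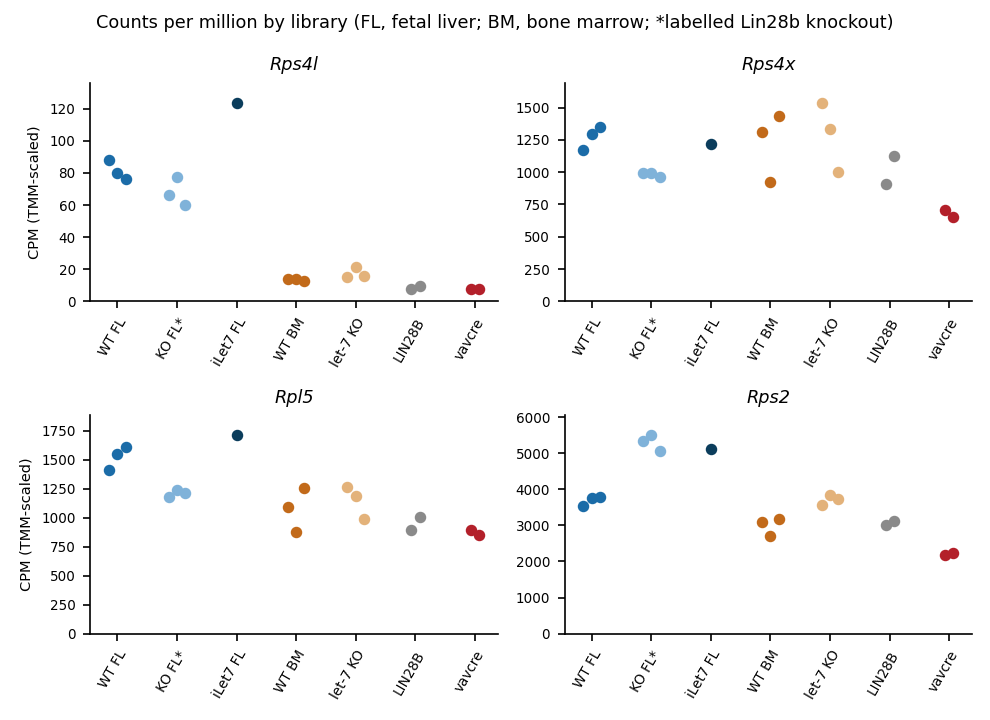
CPM on TMM-scaled library sizes (vertical axes, from 0) of Rps4l, Rps4x, Rpl5 and Rps2 in each library, by group (horizontal axes; points are libraries). Rps4l lies at 60.3 CPM or more in all 7 fetal liver libraries and at 21.2 CPM or less in all bone marrow libraries; Rps4x overlaps between the tissues.

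Further members that were higher in wild-type fetal liver were Rps27l, at 226, 236 and 266 CPM against 145, 120.3 and 156 CPM in bone marrow (log2 difference 0.79, SE 0.10, adjusted p = 4.02e-05), and Rpl5, at 1413, 1548 and 1611 CPM against 1094, 876 and 1253 CPM (0.50, SE 0.11, adjusted p = 0.0035). Neither overlapped between the groups. Rpl7a (0.52), Rpl27 (0.36), Rps2 (0.30) and Rpl41 (0.30) were also higher. Rps19 went the other way, at 1642, 1589 and 1783 CPM in fetal liver and 2052, 2079.6 and 2158 CPM in bone marrow (-0.33, SE 0.06, adjusted p = 0.00134). The remaining calls, Rpl31, Rps24 and Rpl32l, rested on 3 to 9, 17 to 41 and 8 to 14 counts in the fetal liver libraries and were lost in at least 1 alternative each. Without wild-type bone marrow library 5, 5 members were higher, and the calls of Rpl7a (adjusted p = 0.115) and Rpl27 (0.0619) were lost.

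The libraries labelled Lin28b knockout, whose Lin28b counts overlapped those of the wild type, were compared with wild-type fetal liver. Of 75 members, 2 were higher and 7 lower, against 20.8% and 23% of all genes, with a median log2 difference of -0.12. Rps2 was at 5333, 5507 and 5065 CPM against 3549, 3756 and 3782 CPM in the wild type (log2 difference 0.52, SE 0.06, adjusted p = 9.13e-06), and Rpl41, one of the smallest proteins known, was at 1923, 2136 and 2068 CPM against 1478, 1527 and 1722 CPM (0.37, SE 0.08, adjusted p = 0.00115). Rps6, whose phosphorylation is a standard readout of growth signalling, led the falls at 1736, 1785 and 1703 CPM against 2187, 2262 and 2303 CPM (-0.37, SE 0.08, adjusted p = 0.00098). Rps25, Rpl5, Rpl3 and Rpl32 fell by between 0.30 and 0.34 on the log2 scale. None of the genes named here overlapped between the groups, and the members' counts are under the shares called of all genes.

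The split in this comparison depended on how libraries were scaled. With library totals and no TMM factor, 40 members were lower and 1 higher and the median over all genes moved to -0.19; with DESeq2 size factors 3 were lower and 6 higher. Biogenesis genes were lower in 26 of 44 and higher in 2, led by Nop10 (-0.73, adjusted p = 1.75e-06). In these libraries reads placed at several sites, which were not counted, came to 34.5 to 40.6 per 100 uniquely placed reads, against 14.97 to 15.76 in wild-type fetal liver. Their part in the member values was not tested.

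The inducible let-7 library of fetal liver has no replicate and no test, and its let-7 level was not measured. Set beside the 3 wild-type fetal liver libraries, 17 of the 67 well-counted members were inside their range, 26 under and 24 over it, with a median ratio to the wild-type mean of 0.98. Of all 13558 genes tested, 2813 were inside the range, 6322 under and 4423 over it, with a median ratio of 0.675. Over all tested genes 15.6% lay more than 1.5-fold above the wild-type range and 35.0% more than 1.5-fold below it. Rps19 was the 1 well-counted member past that size, at 2778 CPM against 1589 to 1783 CPM, a ratio of 1.66. Rps27l was at 378 CPM against 226 to 266 CPM and Rps2 at 5120.2 CPM against 3549 to 3782 CPM. At the other end Rpsa was at 2455 CPM against 3553 to 4195 CPM, a ratio of 0.622, with Rps12 at 0.660 and Rps10 at 0.684 of the wild-type mean. Rpl22 and Rpl31 also passed the size rule but had 0 and 20 counts there.

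Among close copies that the rule takes in together, Rps27l held nearly all counts of its pair, since Rps27 has several transcripts and kept 14 to 56 counts per library. Rpl39l, a copy best known from testis, had 0 to 15 counts per library, Rpl3l, a muscle form of Rpl3, had 13 counts in all, and Rpl10l had none. Rpl39 itself was at 117 and 107 CPM with vavcre, 209 and 238 CPM with inducible LIN28B and 320.0, 231 and 340.3 CPM in wild-type bone marrow, so it fell with vavcre (adjusted p = 0.00273 against LIN28B without vavcre). Rpl3 was at 3483 and 2899.5 CPM against 3261 and 3669 CPM, with a log2 difference of -0.12 (SE 0.11, adjusted p = 0.469).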

How the data were processed

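The deposited values are unnormalized counts per RefSeq transcript for each of 17 libraries, made by the authors with HTSeq as the files' closing summary lines show; the submitters' processing notes also name cutadapt, TopHat2 and the mouse build mm10, with no versions. Per the labels' protocols, total RNA was converted with the SMARTer ultra low RNA chemistry. Reads fitting several transcripts (23.8% to 29.8% of uniquely placed reads) or none (8.87% to 19.3%) did not enter totals or tests.

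Counts were summed per gene: of 33818 accessions, 33435 were named from RefSeq and 191 from GENCODE vM21, and the 192 unnamed (1.87% of counts) were kept as rows of their own, giving 24416 rows. The 13558 genes that passed filterByExpr went into a single edgeR 4.0.16 quasi-likelihood model with TMM scaling, in which each of the 7 groups has a mean and 10 degrees of freedom remain for the spread. A call is a Benjamini-Hochberg adjusted p under 0.05. Totals were 14957111 to 28165554 counts per library, and with 2 or 3 libraries a group the spread between libraries limits precision. Members, gene lists and tests were chosen with earlier results of these data known. Named members were those with close copies, the 6 largest rises and falls called in each comparison, the stalk proteins and Rpsa, anaemia genes and members with no counts, and up to 3 called genes per other list, though some of these are not reported here; Rpl4, Rpl12, the members that lay outside the vavcre pattern and those of the library pattern were named after their values were seen. The comparisons of each LIN28B group with wild-type bone marrow were added after seeing the data. Alternatives were DESeq2 1.42.0, limma 3.58.1 (voom), other scalings and filters, subsets of libraries and leaving out each library. Scripts used Python 3.11.15 and R 4.3.3, blastn 2.17.0 counted near-identical copies, and the tests were checked on simulated data.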

Additional observations from a re-analysis of the deposited data

Results flagged for a closer look

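The LIN28B groups differed by a test of the difference itself: 54 members were lower and 1 was higher with vavcre than without. In data outside the gene counts, reads placed at several sites came to 37.8 per 100 uniquely placed reads on average in the libraries labelled Lin28b knockout, above wild-type fetal liver; no cause was tested.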

How the results depend on the processing

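Replicate numbers were shared by at least 2 pairs of libraries only between the LIN28B groups and wild-type bone marrow (5 and 6). Same-numbered libraries did not deviate together (r = -0.04 and 0.03 over 13558 genes). With 2 pairs this cannot decide whether they share more than a number. With the replicate block in that fit, chosen after seeing the data, 3 members were lower and 0 higher, with a member median of -0.50 and 4 residual degrees of freedom. No paired analysis was possible because of fewer than 2 shared numbers in the other comparisons. Of 525 alternative values of 38 single-member results, 458 kept their call, 67 lost it (17 results) and none reversed. In the labelled Lin28b knockout relative to wild-type fetal liver, the members called higher were 6 with DESeq2, 1 with library totals, 5 with every gene that had a count, 4 with only genes of 1 transcript and 9 with only the groups compared; the members called lower were 3 with DESeq2, 40 with library totals, 11 with limma-voom and 18 with only the groups compared. With ambiguous and unassigned reads in the denominator their share of counts was 0.769 of wild-type fetal liver. For wild-type fetal liver against bone marrow, 5 were lower with library totals and 1 with every gene that had a count. The 1 member higher with vavcre, and the 1 higher with the let-7b/c knockout, became 0 with only the groups compared, and the 1 higher in the mean of the LIN28B groups became 0 with DESeq2, every gene with a count, only genes of 1 transcript, without the labelled knockout libraries and with only the groups compared.

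Leaving out 1 library at a time gave, for the labelled knockout, 2 to 2 higher and 2 to 6 lower; for fetal liver against bone marrow, 5 to 14 higher (14 without wild-type bone marrow library 6) and 1 to 2 lower; for vavcre against no vavcre, 0 to 1 higher and 34 to 52 lower (34 without LIN28B library 5); for the let-7b/c knockout, 0 to 2 higher; and for the mean of the LIN28B groups against wild-type bone marrow, 0 to 1 higher and 30 to 59 lower. Where this leaves a group with 1 library, that library is assumed to vary like the others. A library total without TMM moved the median of all genes by more than 0.1 in both fetal liver comparisons, to -0.19 in each.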
